A study of Homo sapiens with 8 samples.

Results

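Immediate-early genes are transcribed within minutes of a stimulus, from promoters whose factors are already in the cell, and their mRNAs are short-lived. Many of their products feed back on the response: dual specificity phosphatases inactivate MAP kinases, zinc finger and BTG proteins recruit deadenylases to mRNAs, and inhibitors such as NFKBIA hold transcription factors back. Arsenite, an oxidative stressor, activates the stress MAP kinases JNK and p38 as well as EIF2AK1, a kinase that phosphorylates the translation factor eIF2. The genes described here are 40 named immediate-early and feedback genes other than the FOS and JUN families of AP-1, picked by symbol. Of these, 37 had a mean of at least 10 reads over the mRNA-seq libraries, among 12599 such genes and 19964 genes with a coding transcript in all. EGR2, EGR3 and GADD45G were below that minimum, with means of 8.75, 9.5 and 5.75 reads.

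HEK293T cells, a human embryonic kidney line that carries SV40 large T antigen, were grown in DMEM and given 40 µM sodium arsenite or vehicle for 30 min. Ribosome-protected fragments from the 80S peak (ribo-seq) and fragments of oligo(dT)-selected mRNA (mRNA-seq) were sequenced from the same lysates, in 2 independent biological replicates, which gave 8 libraries. All dishes were washed with cycloheximide, which holds ribosomes in place, at harvest and not before. Arsenite was given at a single dose and time. RNA level is used below for mRNA-seq reads over the transcript and ribosome occupancy for ribo-seq reads over the coding sequence (CDS). Translation efficiency (TE) is used for ribosome occupancy relative to RNA level. The paper reports that arsenite strongly lowered translation in general, and the scaling used below removes such a common shift. A higher occupancy or TE below is thus higher relative to other mRNAs and not a measured gain in translation.

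Depth differed between replicates. On the transcripts used, mRNA-seq libraries held 3993302 and 4018641 reads in replicate 1 (control and arsenite) and 19435912 and 21724986 in replicate 2. Ribo-seq libraries held 1900744 and 1023932 reads in replicate 1 and 7270195 and 3043823 in replicate 2, so footprint values of replicate 1 in arsenite are the least precise. Filament and developmental genes that this line is known to express, such as VIM, NEFM and LIN28B, had at least 164 mRNA-seq reads in every library, while PAX2 had 6 to 71 and KRT8 42 to 159. Of markers of other cell types, HBB and CD3E had 0 in all, PTPRC had 2 to 15 and COL1A1 had 44 to 266 reads.

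RNA levels of most of these genes differed little between arsenite and control, and 5 of 37 passed the test. The RNA of EGR1, DUSP1, RHOB and TOB1 rose and that of ID2 fell (edgeR quasi-likelihood F-test, Benjamini-Hochberg adjusted over all genes, threshold 0.05). This is 13.5% of them, beside 5.77% of all genes tested, with 3.77% of all genes called higher and 2.00% called lower. At an unadjusted p under 0.05 there were 10 of 37, beside 18.4% of all genes. The median log2 change over the 37 genes was 0.04, beside -0.01 over all genes, and changes were of the same sign in both replicates for 23 of them (62.2%, beside 60.5% of all genes). Libraries were scaled by TMM, so each change is relative to the bulk of mRNAs, and in bulk samples fewer cells with an RNA cannot be told apart from less of it per cell. The 5 calls needed the pairing of treatments within replicates: with no replicate block edgeR called 0 of the 37 genes and 0 genes in all. DESeq2 with the block called 0 members and 87 genes in all, giving no adjusted p for 32 of the 37. The edgeR intervals and p-values of RNA level rest on a spread shared between genes, and hardly on that of a gene's own 2 replicates.

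**Figure D1:**
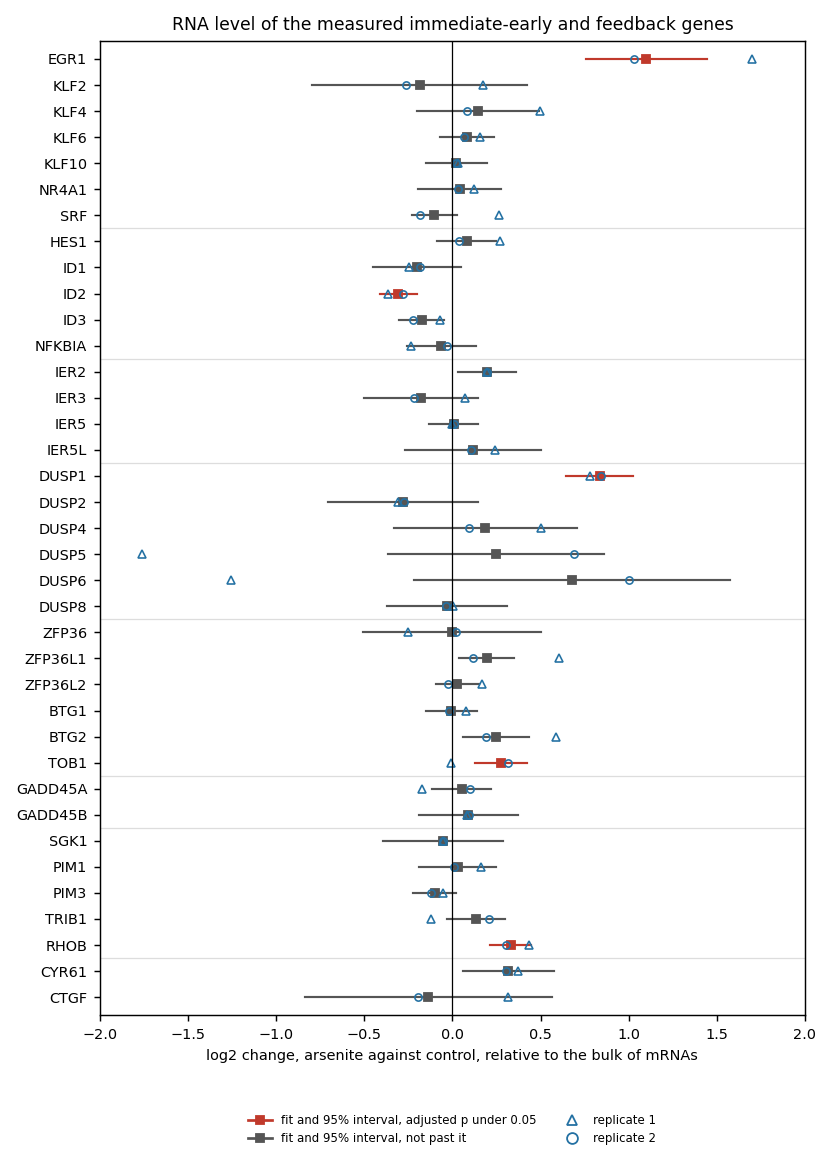
Log2 change of RNA level in arsenite against control (x axis) for the 37 measured genes, in order of their role, with roles parted by grey lines. Squares and bars are the edgeR estimate and its 95% interval, triangles and circles the change within replicates 1 and 2; EGR1 and DUSP1 stand to the right of all other intervals' centres, and DUSP5 and DUSP6 have replicates on opposite sides of 0.

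Promoter windows were read for context, since serum response factor (SRF), which binds the CArG box, and CREB, which binds the cAMP response element (CRE), are known regulators of immediate-early genes. RefSeq windows of 300 bases (GRCh38.p14), from 250 bases before the start of transcription to 50 after its first base, were matched for 29 of the 37 genes, in 35 windows. CArG boxes were found in EGR1 and SRF, 6.90% of the genes matched, beside 1.60% of all genes with a window and 1.29% of all windows. The sequences below are 30 bases of each, 5′ to 3′ on the strand of the gene, with the CArG box in capitals.
EGR1, first CArG box (chr5:138465364-138465393, + strand): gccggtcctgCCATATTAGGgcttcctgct
EGR1, second CArG box (chr5:138465386-138465415, + strand): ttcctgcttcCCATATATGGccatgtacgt
SRF, first CArG box (chr6:43171229-43171258, + strand): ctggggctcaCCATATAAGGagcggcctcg
SRF, second CArG box (chr6:43171249-43171278, + strand): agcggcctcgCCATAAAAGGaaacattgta

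The CRE, searched as TGACGTCA on both strands, was found in DUSP1, DUSP8 and ZFP36L1, which are 10.3% of the genes matched, beside 2.25% of all genes and 1.85% of all windows. It is shown in capitals.
DUSP1 (chr5:172771302-172771331, - strand): ggcagggcgggTGACGTCAccgccccgtca
DUSP8, first CRE (chr11:1572371-1572400, - strand): ccgggctccgcTGACGTCAcctgcccccga
DUSP8, second CRE (chr11:1572327-1572356, - strand): ttggctgcaggTGACGTCAggggctttttt
ZFP36L1 (chr14:68793450-68793479, - strand): agtggaatgagTGACGTCAcagccgcgctc

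The AP-1 site TGANTCA, which the CRE does not contain, was in 0 of the 29 genes and 9.37% of all genes. The heat shock element was in 0 of them and 0.608% of all genes. The NF-kappaB site was in 6 (CTGF, GADD45B, HES1, ID2, NFKBIA and SRF), 20.7% beside 13.3%. These are matches of letters in a short window. Of the holders of a CArG box, EGR1 rose in RNA level and SRF did not pass the test, and of the holders of a CRE, DUSP1 rose and DUSP8 and ZFP36L1 did not pass it. RHOB and TOB1, which also rose, had a window and held none of the motifs searched. ID2, which held an NF-kappaB match, fell.

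EGR1, a zinc finger activator that is induced by mitogens and stress, had the largest rise. The control libraries held 7 and 89 of its mRNA-seq reads in replicates 1 and 2, the arsenite libraries 23 and 204. In cpm, reads scaled by TMM to a common library size, this was 1.80 and 4.44 in control and 5.94 and 9.11 in arsenite, a mean of 3.12 ± 1.86 against 7.53 ± 2.24 (SD, n = 2). Both arsenite libraries were above both controls. The log2 change was 1.10 (SE 0.18, 95% interval 0.76 to 1.45, edgeR adjusted p = 8.37e-08), a 2.14-fold higher level, which was rank 5 by size among the 475 genes called higher. It was 1.70 in replicate 1, where 7 reads stand behind the control, and 1.03 in replicate 2. JUN, the best known of the AP-1 genes left out here, rose by 1.45 (SE 0.053) in RNA level for comparison.

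Footprints of EGR1 did not give a detectable change. CDS footprints were 11 and 52 in control and 1 and 35 in arsenite, or 6.36 and 6.76 cpm against 1.07 and 10.7 cpm. Replicate 1 was lower in arsenite, on a single read, and replicate 2 was higher, so the groups overlapped. The log2 change of occupancy was 0.21 with a 95% interval of -0.74 to 1.16, and that of TE was -0.74 with an interval of -1.79 to 0.31. An occupancy change as large as the RNA change is inside the first interval, and no change is inside both.

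The other activators of transcription did not pass the test in RNA level. KLF4, a Krüppel-like factor of stem and epithelial cells, had the next largest value, 0.15, with 4.38 and 5.73 cpm in control and 6.20 and 6.07 in arsenite. KLF2, which is best known in endothelium and lymphocytes, had the lowest, -0.19, with 2.06 and 2.09 cpm in control and 2.33 and 1.74 in arsenite. KLF2 replicates changed in opposite directions, and its interval ran from -0.79 to 0.42. KLF6 (0.09), KLF10 (0.02) and NR4A1 (0.04), an orphan nuclear receptor, had intervals that stayed within 0.3 of 0 on the log2 scale.

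SRF itself, the MADS-box factor that binds CArG boxes, had an RNA change of -0.10 (95% interval -0.23 to 0.03) and the lowest TE value of the genes described. Its CDS footprints were 25 and 259 in control and 9 and 56 in arsenite, which is 14.4 and 33.7 cpm against 9.59 and 17.2 cpm. Arsenite was lower in both replicates, although the groups overlapped because replicate 2 was higher throughout. The log2 change was -0.88 in occupancy (adjusted p = 0.124) and -0.87 in TE (95% interval -1.45 to -0.29, edgeR adjusted p = 0.103). Neither passed the threshold.

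Among inhibitors of transcription factors, ID2 RNA fell. The ID proteins lack a DNA-binding region and sequester basic helix-loop-helix factors. ID2 was at 201 and 193 cpm in control and 156 and 159 cpm in arsenite, a mean of 197 ± 5.52 against 157 ± 2.15 (SD, n = 2), from at least 602 reads in each library. Both arsenite libraries were below both controls. The log2 change was -0.31 (SE 0.054, 95% interval -0.41 to -0.20, edgeR adjusted p = 1.56e-06), or -0.37 and -0.28 within replicates.

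ID2 footprints did not follow in both replicates. Occupancy was 115 and 121 cpm in control and 165 and 118 cpm in arsenite, higher in replicate 1 and about level in replicate 2. The occupancy change was 0.22 (95% interval -0.19 to 0.63) and the TE change 0.51 (95% interval 0.09 to 0.93, edgeR adjusted p = 0.169), which did not pass. Its 2 paralogs had negative RNA values too, ID1 with -0.20 (-0.45 to 0.05) and ID3 with -0.17 (-0.30 to -0.05, adjusted p = 0.0902), below control in both replicates but not past the threshold. NFKBIA, the IkappaB protein that retains NF-kappaB in the cytoplasm, had -0.06 and HES1, a repressor of the Notch pathway, had 0.08, the highest value among these genes. HES1 was at 26.8 and 34.2 cpm in control and 32.3 and 35.1 cpm in arsenite.

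None of the 4 IER genes passed in RNA level, nor did any of the 3 with enough footprints pass in occupancy or TE. IER2, a nuclear protein of early growth responses, had the highest RNA value, 0.20 (0.19 and 0.20 within replicates), from 27.6 and 33.9 cpm in control to 31.5 and 38.9 cpm in arsenite. That is a difference with an unadjusted p of 0.0202 that did not survive adjustment (0.164). IER3, which is known to counter cell death, had the lowest value, -0.18, with 5.41 and 7.48 cpm in control and 5.69 and 6.43 cpm in arsenite. IER5, which is known to act on the heat shock factor HSF1, had 0.01 with a 95% interval of -0.13 to 0.15, and IER5L had 0.12 with a wider one of -0.27 to 0.50.

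DUSP1, the nuclear phosphatase that inactivates p38, JNK and ERK, had the smallest p of the genes described. Its mRNA-seq reads were 63 and 388 in control and 108 and 779 in arsenite, or 16.2 and 19.3 cpm against 27.9 and 34.8 cpm. The mean was 17.8 ± 2.203 in control and 31.3 ± 4.85 in arsenite (SD, n = 2), and the groups did not overlap. The log2 change was 0.84 (SE 0.096, 95% interval 0.65 to 1.02, edgeR adjusted p = 2.48e-15), 1.78-fold, with 0.78 in replicate 1 and 0.85 in replicate 2. By size it was rank 8 among the genes called higher.

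Occupancy of DUSP1 had a value close to that of its RNA. CDS footprints were 22 and 251 in control and 21 and 181 in arsenite, from libraries of lower depth in arsenite, which is 12.7 and 32.7 cpm against 22.4 and 55.5 cpm. Arsenite was higher in both replicates, by 0.81 and 0.76 on the log2 scale. The fitted change of 0.78 (95% interval 0.24 to 1.32) did not pass after adjustment (edgeR adjusted p = 0.109). The TE change was -0.06, with a 95% interval of -0.46 to 0.33 that leaves out a fall as large as the rise in RNA.

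The other MAP kinase phosphatases were sparse. DUSP2, DUSP4, DUSP5, DUSP6 and DUSP8 had log2 changes of -0.28 to 0.68 in RNA level and none passed. DUSP6, which acts on ERK in the cytoplasm, had 5 and 13 control reads against 2 and 30 arsenite reads. DUSP5, its nuclear counterpart, had 14 and 28 against 4 and 51. In both genes replicate 1 was lower and replicate 2 higher in arsenite, and the intervals of -0.22 to 1.57 and -0.37 to 0.86 leave room for a rise as large as that of DUSP1. DUSP8, which acts on JNK and p38, had 134 and 146 reads in replicate 2 and a change of -0.03 (-0.37 to 0.31). DUSP2, a nuclear phosphatase of ERK and p38, had the lowest RNA value, -0.28, with 10 and 90 control reads against 8 and 83 arsenite reads. It had 4.04 and 4.42 cpm of footprints in control and 2.13 and 2.15 cpm in arsenite, from 2 and 7 reads, a 0.499-fold occupancy whose log2 interval was -2.16 to 0.15.

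**Figure D2:**
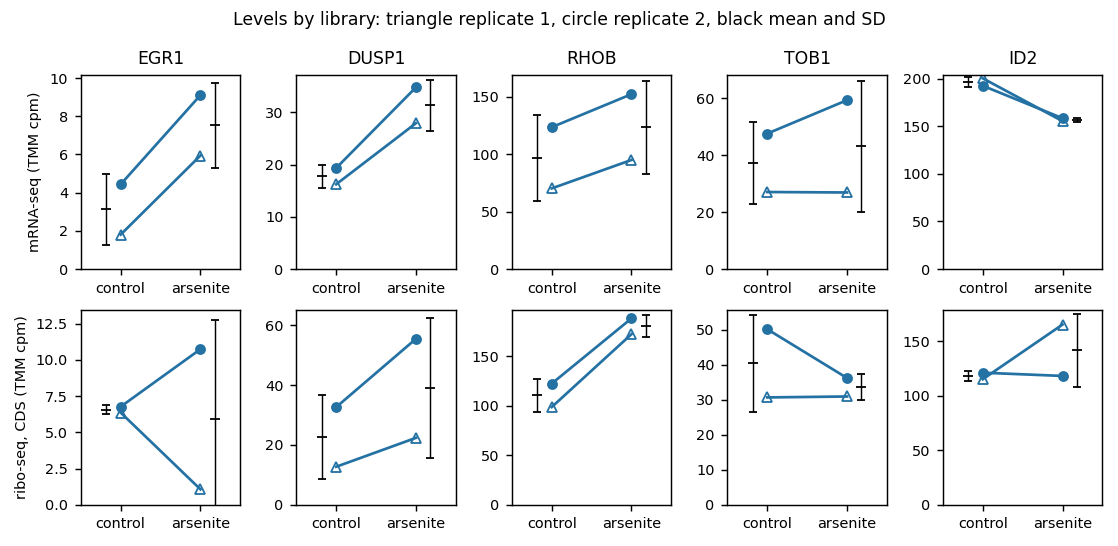
TMM-scaled cpm by library for the 5 genes whose RNA level passed the test, mRNA-seq in the upper row and CDS footprints in the lower. Lines join the libraries of a replicate (open triangle replicate 1, filled circle replicate 2) and black bars are the mean ± SD of n = 2, drawn from 0 up; EGR1 and DUSP1 RNA is higher in arsenite in both replicates, whereas EGR1 footprints move in opposite directions.

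Factors of mRNA decay had 1 call in RNA level among 6, beside 5.77% of all genes tested. TOB1, an antiproliferative protein that bridges RNA-binding proteins to the CCR4-NOT deadenylase, was at 27.0 and 47.5 cpm in control and 26.9 and 59.3 cpm in arsenite. Only replicate 2 was higher in arsenite (0.32), replicate 1 being level (-0.01), and the groups overlapped. The fitted change of 0.27 (SE 0.076, edgeR adjusted p = 0.0103) passed, with most of the reads in replicate 2, and the call was lost when mRNA-seq reads over the CDS alone were used (0.21, adjusted p = 0.339). TOB1 footprints were 30.6 and 50.1 cpm in control and 30.9 and 36.2 cpm in arsenite. TE had a value of -0.62 (95% interval -1.07 to -0.17, edgeR adjusted p = 0.123), again from replicate 2.

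The remaining decay factors did not pass. BTG2, a TOB relative and p53 target, had 0.25 in RNA level (adjusted p = 0.107), with 13.4 and 25.9 cpm in control and 20.2 and 29.6 cpm in arsenite. Its occupancy value of 1.24 was the highest of the genes described (adjusted p = 0.144), but rests on 0 and 49 footprints in control and 3 and 44 in arsenite. ZFP36L1, which binds AU-rich elements and promotes decay, had 0.19 in RNA level (adjusted p = 0.132). Its footprints were 8.09 and 26.0 cpm in control and 17.0 and 39.2 cpm in arsenite, higher in arsenite within both replicates, with an occupancy change of 0.71 (95% interval 0.11 to 1.30, adjusted p = 0.190). Its paralogs ZFP36 and ZFP36L2 had RNA changes of -0.0039 and 0.03, with intervals of -0.51 to 0.50 and -0.09 to 0.15. BTG1 had the lowest value, -0.01 (-0.15 to 0.14), with 31.2 and 59.6 cpm in control and 32.8 and 58.8 cpm in arsenite.

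GADD45A and GADD45B, stress-inducible proteins that bind the p38 and JNK kinase kinase MTK1, had RNA changes of 0.05 (95% interval -0.11 to 0.22) and 0.09 (-0.19 to 0.37). GADD45A was at 28.8 and 34.99 cpm in control and 25.6 and 37.5 cpm in arsenite, with replicates in opposite directions. GADD45B was at 9.27 and 8.62 cpm in control and 9.82 and 9.20 cpm in arsenite. Neither passed in any measure.

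RHOB was the only gene of the list to pass in both RNA level and ribosome occupancy. It encodes a short-lived small GTPase of endosomes that is induced by growth factors and genotoxic stress. Its RNA was at 70.3 and 124 cpm in control and 95.1 and 152 cpm in arsenite, higher in arsenite in both replicates, although the groups overlapped since the replicates differed in level. The log2 change was 0.33 (SE 0.059, 95% interval 0.21 to 0.45, edgeR adjusted p = 3.17e-06), or 0.44 and 0.30 within replicates.

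RHOB occupancy rose too, relative to the bulk of mRNAs. CDS footprints were 171 and 942 in control and 162 and 615 in arsenite, or 98.8 and 123 cpm against 173 and 189 cpm. The mean was 111 ± 16.8 in control and 181 ± 11.3 in arsenite (SD, n = 2), and both arsenite libraries were above both controls. The change was 0.70 (SE 0.19, 95% interval 0.31 to 1.09, edgeR adjusted p = 0.0440), with 0.80 and 0.62 within replicates. RHOB was the 1 of 30 genes called in occupancy (3.33%), beside 2.81% of all genes tested, with 1.46% of all genes higher and 1.35% lower. At an unadjusted p under 0.05 there were 6 of 30, beside 17.6% of all genes. The TE change of 0.33 did not pass (95% interval -0.01 to 0.68, adjusted p = 0.251), so that occupancy was not shown to differ from RNA. The occupancy call was lost by DESeq2 with the block (adjusted p = 0.259) and by edgeR with no replicate block.

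The kinases SGK1, PIM1 and PIM3 and the pseudokinase TRIB1 did not pass in RNA level, with values between -0.10 and 0.13. PIM3 had the lowest, at 109 and 92.6 cpm in control and 105 and 85.3 cpm in arsenite, with a 95% interval of -0.22 to 0.02. PIM1, a survival kinase under cytokine control, had an RNA change of 0.03 and fewer footprints, 17.3 and 14.7 cpm in control against 7.46 and 9.50 cpm in arsenite. Both of its arsenite libraries were below both controls. The change was -0.80 in occupancy (adjusted p = 0.219) and -0.79 in TE (95% interval -1.43 to -0.16, adjusted p = 0.158), which did not pass.

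Secreted matricellular proteins, which are targets of YAP and SRF, were represented by CYR61 and CTGF. CYR61 was at 9.79 and 10.1 cpm in control and 12.7 and 12.5 cpm in arsenite. Both arsenite libraries were above both controls, but the change of 0.32 (95% interval 0.06 to 0.57) did not pass after adjustment (adjusted p = 0.140). Its occupancy change was 0.06 (-0.57 to 0.69). CTGF, with 4 and 34 control reads against 5 and 33 arsenite reads, had -0.14 and an interval of -0.84 to 0.56.

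Whether occupancy followed RNA could be read for 30 genes, those with a mean of at least 10 reads in both assays. IER3, DUSP4, DUSP5, DUSP6, DUSP8, ZFP36 and CTGF had too few footprints. Occupancy and RNA changed in the same direction in 21 of 30 genes (70.0%), beside 54.5% of all 10273 genes. Occupancy changes themselves were of the same sign in both replicates for only 14 of the 30 (46.7%), beside 62.8% of the 10291 genes tested in occupancy. Across these 30 genes Pearson's r between the changes was 0.40 and Spearman's rho 0.49, beside 0.13 and 0.12 across all genes. These describe genes that are not independent replicates and share the same cultures. Of the 5 genes called in RNA level, 3 had occupancy of the same sign (EGR1, whose occupancy turned to -0.41 under DESeq2, DUSP1 and RHOB), beside 63.5% of all 698 called genes measured in both.

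**Figure D3:**
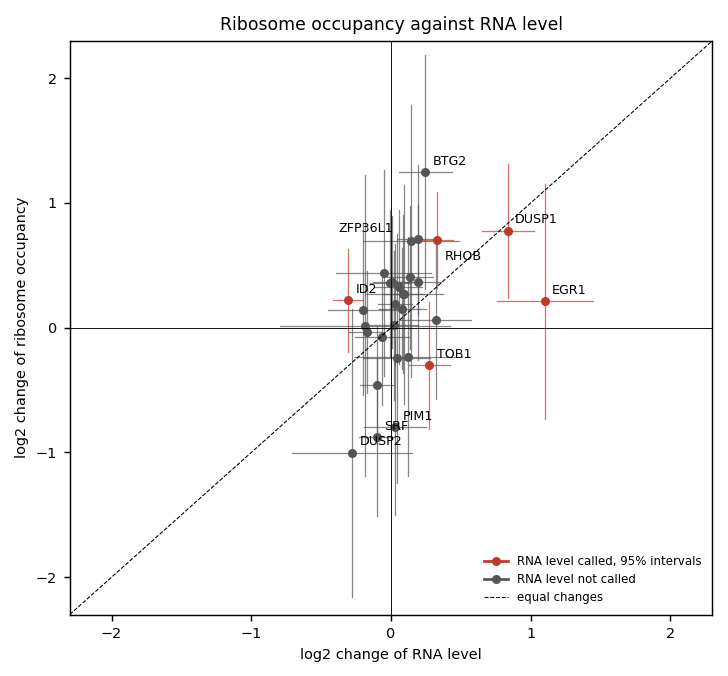
Log2 change of ribosome occupancy (y axis) against that of RNA level (x axis) for the 30 genes measured in both, with 95% intervals as bars, red where RNA level passed the test. Vertical bars are longer than horizontal ones for nearly every gene; DUSP1 lies close to the dashed line of equal changes, and BTG2, SRF and PIM1 lie far from it with wide intervals.

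TE passed for 0 of 30 genes by edgeR, beside 2.00% of all genes (0.993% higher and 1.00% lower), with 6 at an unadjusted p under 0.05 (beside 21.2% of all genes), namely SRF, PIM1 and TOB1 with lower and ID2, IER5 and BTG2 with higher values. DESeq2 also called 0, with 1 at an unadjusted p under 0.05, but it gave no adjusted p for 25 of the 30 genes. The median TE change was 0.18, beside -0.01 over all genes, but within replicates it was -0.19 in replicate 1 and 0.20 in replicate 2, and 17 of 30 genes had the same sign in both replicates (56.7%, beside 62.1%). These measurements limit what can be said of translation: the 95% interval reached a median of 0.51 either way for TE and 0.62 for occupancy, beside 0.19 for RNA level. For 18 of 30 genes the TE interval stayed within 1 on the log2 scale, whereas for RNA level 34 of 37 did, and 26 stayed within 0.5. Intervals of RNA level rest almost wholly on the spread shared between genes. Their widths are thus not like measures with those of TE and occupancy.

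**Figure D4:**
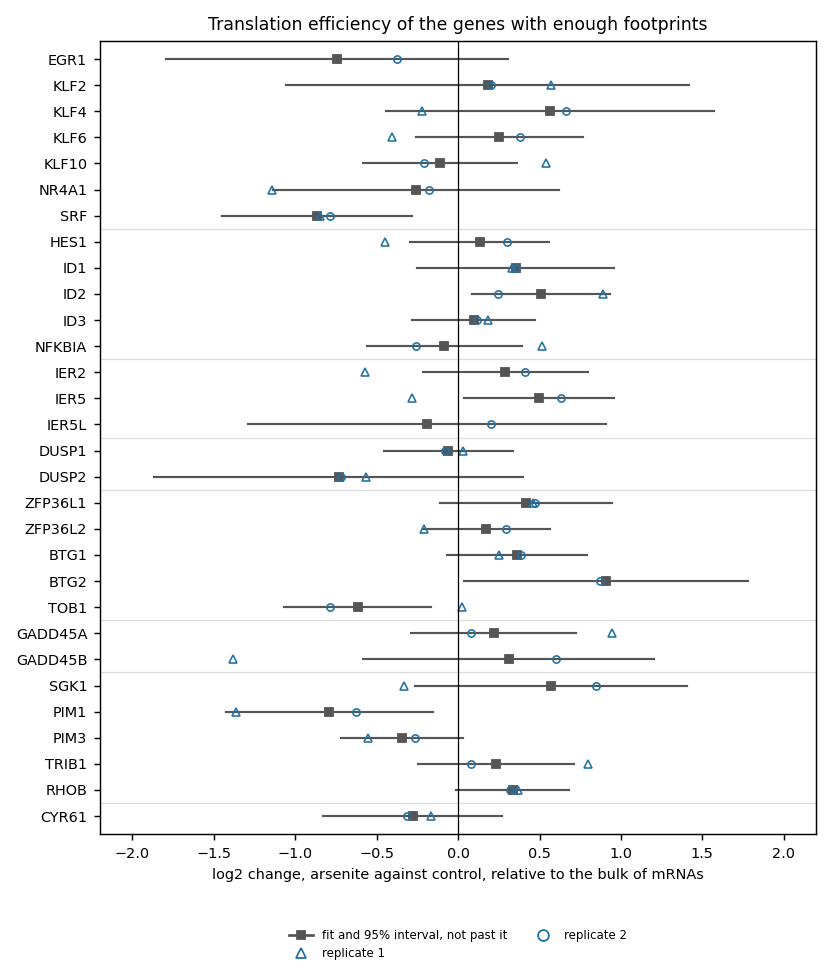
Log2 change of TE in arsenite against control (x axis) for the 30 genes with enough footprints, with edgeR estimates and 95% intervals (squares and bars) and the change within each replicate (triangle replicate 1, circle replicate 2). Replicate 1 of EGR1, IER5L and BTG2 lies beyond the axis and is not drawn; none of the genes passed the threshold, and many replicate 1 triangles lie across 0 from the circles.

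The study's own measure, a Z-score of the change among genes of similar depth within a replicate, was rebuilt for these genes. At its threshold of 4, 2 genes passed for RNA level in replicate 2, DUSP1 with 5.53 and EGR1 with 4.38, and 0 passed in replicate 1, where they had 2.80 and 2.62. Over all genes 24 of 14682 were above it in replicate 2 and 9 of 12386 in replicate 1. RHOB had 2.49 and 2.48 and ID2 -2.67 and -2.46 in replicates 1 and 2, so that their smaller changes repeated. TOB1 had -0.01 and 2.81. No member passed the threshold for occupancy or TE, out of 25 with a score in replicate 1 and 36 in replicate 2. Few genes of any kind did. In occupancy 0 were above 4 and 4 below -4 of 9927 genes in replicate 1, and 6 and 7 of 11612 in replicate 2. In TE there were 4 and 2 of 9912, and 2 and 7 of 11598. EGR1 and BTG2 were among the members with too few footprints for a score in replicate 1.

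Footprints on the 5′ leaders of these mRNAs were few in number: 15 of 37 genes had 0 over the ribo-seq libraries and 6 had at least 10. Such counts depend on depth and were not made over all genes. As a share of reads, the 37 genes together had 0.361% on leaders in control and 0.842% in arsenite in replicate 1. In replicate 2 they had 1.86% and 3.85%, both above the shares of all ribo-seq reads given below. In replicate 1 only the arsenite share was above. RHOB had more leader footprints than any other of these genes. In replicate 2, leader footprints of RHOB were 58 of 1005 reads on the transcript in control, 5.77% (95% Wilson interval 4.49 to 7.39), and 86 of 708 in arsenite, 12.1% (9.94 to 14.8). In replicate 1 they were 0 of 171, which allows a share of up to 1.75% (3 counts of the total; the Wilson upper bound is 2.197%), and 4 of 167, 2.40% (0.935 to 5.996). The share was higher in arsenite within each replicate, on a low count in replicate 1, and the groups overlapped. The leader share of all ribo-seq reads was also higher in arsenite, from 0.392% to 0.490% in replicate 1 and from 0.795% to 1.52% in replicate 2. So was their 3′ UTR share, from 0.102% to 0.201% in replicate 1 and from 0.204% to 0.755% in replicate 2. The part of such general shifts in the RHOB values was not tested.

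Leaving RHOB out, the other measured genes together had 84 of 6615 reads on leaders in control and 61 of 3108 in arsenite in replicate 2, 1.27% (1.03 to 1.57) and 1.96% (1.53 to 2.51). In replicate 1 they had 4 of 936 and 2 of 546, 0.427% (0.17 to 1.09) and 0.366% (0.10 to 1.33). BTG1 had 11 of 193 reads in control and 13 of 116 in arsenite of replicate 2, 5.70% (3.21 to 9.92) and 11.2% (6.67 to 18.2), intervals that overlap. TRIB1 (12 of 230 and 8 of 121) and KLF6 (8 of 146 and 4 of 84) had overlapping intervals as well. The intervals cover counting error within a library only, and not the spread between replicates. Reads carry no molecular identifiers, so amplified copies of a fragment may be counted more than once and the intervals may be too narrow.

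**Figure D5:**
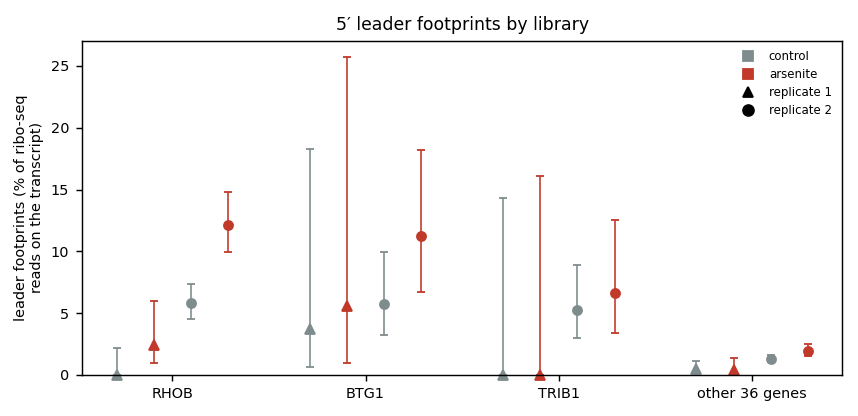
Share of ribo-seq reads on the transcript that lie on the 5′ leader (y axis, percent) by library for RHOB, BTG1, TRIB1 and the other 36 measured genes pooled, grey for control and red for arsenite, triangles for replicate 1 and circles for replicate 2, with 95% Wilson intervals. RHOB in replicate 2 stands at 5.77% in control and 12.1% in arsenite, with intervals that do not overlap.

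The pathways upstream and around these genes, 72 listed receptors, kinases, cofactors, phosphatases and deadenylase subunits, were all measured in RNA level, and 4 of them rose, beside 3.77% of all genes called higher. Their median change was 0.01. EGFR, a receptor upstream of RAS and ERK, rose by 0.44 (SE 0.14, adjusted p = 0.0317). MKL1, a cofactor of SRF that is freed when actin polymerises, rose by 0.27 (adjusted p = 0.0309), and CREBBP, the acetyltransferase that CREB recruits, rose by 0.18 (adjusted p = 0.0250). CNOT3, a subunit of CCR4-NOT, rose by 0.26 (adjusted p = 0.000758). All 4 kept their sign in both replicates.

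None of 14 JNK and p38 cascade kinases, 9 NF-kappaB pathway genes and 6 further dual specificity phosphatases passed in RNA level, beside 5.77% of all genes. In ribosome occupancy 0 of 71 genes of this list passed by edgeR, beside 2.81% of all genes. In TE 1 of 71 did (1.41%, beside 2.00% of all genes): FGFR1, a growth factor receptor, fell by 1.05 (SE 0.22, adjusted p = 0.0475), with -1.03 and -1.07 within replicates. The median TE change of the list was -0.13.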

How the data were processed

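Ribo-seq and mRNA-seq were made from HEK293T cells, in 2 replicates of control and arsenite. The deposited values are raw counts of reads per transcript, which the authors made after trimming (cutadapt) and alignment to RefSeq transcripts of the forward strand with Bowtie 1.0.0, discarding reads of more than 1 gene. Replicates differed in adapter, and replicate 2 is the deeper in every library. Coding transcripts are split into leader, CDS and 3′ UTR.

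For each gene the coding transcript with most CDS footprints in control was used. edgeR 4.0.16 (R 4.3.3; TMM, quasi-likelihood F-test, Benjamini-Hochberg adjustment, threshold 0.05, mean of at least 10 counts, replicate as block) gave changes in RNA level, occupancy and, as an assay by treatment interaction over all 8 libraries, TE. SE and 95% intervals come from that test, which shares the estimate of spread between genes. For RNA level they rest almost wholly on the shared estimate. DUSP5, for example, had RNA changes of -1.76 and 0.69 within replicates and an SE of 0.31. The block follows the study's comparison within replicates: over the 10880 and 7381 genes whose mean reached 50 counts, deviations from the group means correlated by 0.866 in mRNA-seq and 0.794 in ribo-seq between libraries of the same number. A prior count of 0.5 was added for log2 changes of a single replicate. Z-scores used bins of 300 genes and a minimum of 2 reads. Spike-in scaling was not used here, so a shift common to all mRNAs, such as the general fall of translation that the paper reports, is not seen. Figures and shares were made with Python 3.11.15 (pandas 2.3.3, numpy 2.4.6, scipy 1.17.1, matplotlib 3.10.9). The fits were tested on simulated counts with a common spread for all genes of a fit. Genes with a wider spread of their own were thus not covered by that test.

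The genes, the pathway list and the motifs were chosen with earlier results of these data known. Some genes of the pathway and marker lists are not reported here. Every measured member was named by role, with values by library for those past a threshold and for the highest and lowest RNA change of each role. PIM1, SRF, ZFP36L1 and DUSP2 footprints and the leader shares were singled out after their values were seen. Alternatives were no replicate block, upper-quartile normalization, DESeq2 1.42.0, other count minimums, transcript choices and regions, another prior count and bin size, and each replicate left out.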

Additional observations from a re-analysis of the deposited data

How the results depend on the processing

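Of the members called, 5 in RNA level and 1 in occupancy, 0 and 0 were called with no replicate block, 0 and 0 by DESeq2, and 0 and 0 by DESeq2 without independent filtering, an alternative chosen after seeing the data. At an unadjusted p under 0.05, the fit without the block left 1 member in RNA level and 0 in occupancy and TE, and DESeq2 left 4, 1 and 1, beside 10, 6 and 6 in the fit with the block. In that fit 18.4%, 17.6% and 21.2% of all genes were under it. These shares were not taken for the other fits, so the drop is not shown to be particular to the members. DESeq2 gave no adjusted p for 32 of 37 members in RNA level, 22 of 30 in occupancy and 25 of 30 in TE. Without independent filtering DUSP1 had the lowest adjusted p of the genes called in RNA level, 0.0811. The lost calls kept their direction. Over all genes the calls numbered 0 without the replicate block. EGR1 occupancy turned to -0.41 in both DESeq2 fits, where its interval already held 0.

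Leaving out each replicate in turn gives values with no test: the members' median was 0.0336 to 0.0828 in RNA level, 0.05 to 0.28 in occupancy and -0.19 to 0.20 in TE, the lower TE median being that without replicate 2. TOB1 RNA was -0.00863 without replicate 2 and 0.318 without replicate 1. Upper-quartile normalization, both other count minimums, the other transcript choice and, for TE, TMM over both assays together (added after seeing the data) left the counts of called members at 5, 1 and 0. Counts of genes called in all ran from 0 to 798 in RNA level, 0 to 581 in occupancy and 0 to 458 in TE. Depth limits the footprints of replicate 1 most.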
